A study of Homo sapiens with 4 samples.

Results

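The cytosolic ribosomal protein genes are the genes for the protein parts of the ribosome that works in the cytoplasm. They were taken from the gene names alone: every row whose name is RPL or RPS followed by digits and at most one letter A, L, X or Y, together with RPLP0, RPLP1, RPLP2 and RPSA, while pseudogene rows, the RPS6 kinases and RPS19BP1 were left out. The rule found 81 of 19577 gene rows, of which 49 carry a large subunit name and 32 a small subunit name, and 4 of them (RPL3L, RPL10L, RPL39L and RPS27L) are paralogue copies of another member.

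The cells were MCF10A, an untransformed human mammary epithelial line, carrying a GFP-tagged histone H2B. In every sample 10000 cells were seeded as a circular patch on fibronectin and cultured for 6 days in medium with horse serum, EGF, hydrocortisone, cholera toxin and insulin. Regions of the patch were then phototagged with the photoactivatable dyes JF646 (outer region) and JF549 together with JF646 (middle region), either at low resolution (3 concentric rings of 1000 to 1500 μm) or at high resolution (an outermost band of 250 μm, the next 250 μm, and the inside). Live single cells were sorted into plates of 384 wells, and each experiment has 2 replicates with 1 plate each. The groups thus differ in how the cells were tagged and sorted, and all of them hold the same line without any further treatment. Which region a sorted cell came from was not analysed here, and every value below is for the sorted cells of a whole plate. The study speaks of 2 biological replicates per experiment, which makes the plate the replicate (n = 2 per experiment) while the cells of a plate are not.

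Each ribosome is built from a small subunit that reads the mRNA and a large subunit that joins the amino acids, and nearly every ribosomal protein is present once per ribosome. Most of the mRNAs for these proteins begin with a C followed by an uninterrupted run of pyrimidines, the 5′ terminal oligopyrimidine (TOP) tract, which is bound by LARP1 and through which the mTOR kinase sets their translation with growth. Free ribosomal proteins can also leave the ribosome's context, the best known case being RPL5 and RPL11, which together with the 5S rRNA bind MDM2 and so stabilise p53.

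The first bases of a set of members are shown because the tract is what most of the gene group has in common at the sequence level and because these genes recur below. Each line gives 30 bases of RefSeq sequence (build GRCh38.p14) on the strand of the gene, from 10 bases before the annotated transcript start to 20 bases from it, and capitals mark a tract that begins at the start with C and runs for at least 5 bases of C or T. Where RefSeq lists several starts, the one with the longest tract is shown. RPL41, RPL13 and RPS6 are among the 5 most abundant members, RPS12 agreed best with the others across cells, and RPL15, RPL10, RPS25, RPS7, RPL35 and RPL14 are members with the higher rank correlations with the EMT or cell cycle scores. RPL24, RPS21, RPL13A, RPS27 and RPS27L are members with the lower ones, and RPL39, RPL17 and RPL36A had the lowest fold changes between the experiments.
RPL41 (chr12:56116623-56116652, + strand): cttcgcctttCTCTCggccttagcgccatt
RPL13 (chr16:89560672-89560701, + strand): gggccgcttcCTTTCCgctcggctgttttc
RPS6 (chr9:19380217-19380246, - strand): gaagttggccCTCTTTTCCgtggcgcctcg
RPS12 (chr6:132814559-132814588, + strand): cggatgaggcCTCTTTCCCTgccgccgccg
RPL15 (chr3:23916535-23916564, + strand): tggggcctgctggaggagcttcacgcagtc
RPL10 (chrX:154398367-154398396, + strand): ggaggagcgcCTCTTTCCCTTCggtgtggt
RPS25 (chr11:119018324-119018353, - strand): gcagcgcttcCTTTTTgtccgacatcttga
RPS7 (chr2:3575250-3575279, + strand): cgccctcctcctcgcgctgtttccgcctct
RPL35 (chr9:124861938-124861967, - strand): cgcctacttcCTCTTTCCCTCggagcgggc
RPL14 (chr3:40457329-40457358, + strand): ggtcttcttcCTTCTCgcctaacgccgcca
RPL24 (chr3:101686699-101686728, - strand): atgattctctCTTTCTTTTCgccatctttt
RPS21 (chr20:62387093-62387122, + strand): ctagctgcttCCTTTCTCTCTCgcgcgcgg
RPL13A (chr19:49487598-49487627, + strand): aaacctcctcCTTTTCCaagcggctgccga
RPS27 (chr1:153990752-153990781, + strand): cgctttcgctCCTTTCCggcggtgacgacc
RPS27L (chr15:63157458-63157487, - strand): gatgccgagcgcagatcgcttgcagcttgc
RPL39 (chrX:119791611-119791640, - strand): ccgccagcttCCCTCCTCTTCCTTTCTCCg
RPL17 (chr18:49492446-49492475, - strand): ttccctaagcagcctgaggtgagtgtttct
RPL36A (chrX:101391001-101391030, + strand): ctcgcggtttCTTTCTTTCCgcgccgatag

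Of the 81 members, 64 matched this table by symbol, and 46 of them (71.9%) had such a tract at a listed start, against 5.14% of all 27305 genes in the table. The members shown include 4 without one, namely RPL15, RPS7, RPL17 and RPS27L, which says only that these letters do not stand at the starts that RefSeq lists. Among members with a UMI in at least 20% of the cells of every plate, the 44 with a tract had a median level of 8.57 counts per 10000 and a median rho with the EMT score of 0.212, and the 17 without one had medians of 7.11 and 0.251. These medians describe the members only and carry no test. A group of 17 other translation genes known for the same tract, which includes elongation factors and PABPC1, had it in 10 of the 11 genes found in the table.

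The plates held 11709628 and 12203397 transcripts in low-resolution replicates 1 and 2 and 13211394 and 14992348 in high-resolution replicates 1 and 2. Keeping cells with at least 2000 and at most 9000 features and with mitochondrial counts below 40%, the limits that the study states, left 291, 271, 291 and 293 of the 384 wells of a plate, with median depths between 30520 and 41248 transcripts, and no 2 of the 1146 cells had the same counts. This is fewer cells in each experiment than the study counts as analysed, a gap whose origin was not tested. Mitochondrially encoded genes took 28.5% to 31% of the gene counts. Low-resolution replicate 1 was sequenced on another flow cell than the other 3 plates, as the names of the deposited tables give it. The 6 basal or general epithelial markers (KRT5, KRT14, KRT17, TP63, CDH1, EPCAM) summed to 25.8 to 32.6 counts per 10000, with TP63 at 0.00739 to 0.0105. The fibroblast markers summed to 0.0644 to 0.131, the endothelial to 0.141 to 0.214 and the immune to 0.0674 to 0.110, and LUM had no row. Between the experiments KRT5 (17.6, 18.6, 21.2 and 23.1) and KRT17 (4.22, 4.81, 6.26 and 6.57) were higher at high resolution, and CDH1 (0.741, 0.712, 0.448 and 0.437) and EPCAM (1.02, 1.1, 0.957 and 0.965) were lower, each without overlap. KRT14 (2.19, 1.01, 3.25 and 1.49) was higher in replicate 1 of each experiment, with overlap between them. The part of these marker differences in the results below was not tested.

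The ribosomal protein genes together took 7.29% and 7.52% of the gene counts at low resolution and 7.19% and 7.95% at high resolution (replicates 1 and 2 of each), with a mean of 7.49% ± 0.337 (SD, n = 4 plates). The experiments overlapped. The 49 large subunit members took 4.24% to 4.67% and the 32 small subunit members 2.95% to 3.28%, so the large subunit held 58.7% to 58.9% of the summed members, a fraction that varied by 0.0885 percentage points (SD) between plates. In a cell the median count of all members together was 2038, 2446, 2507 and 3247. For each spike-in count the members made 6.24 and 6.26 counts at low resolution against 9.52 and 9.69 at high resolution. The plates of the 2 experiments did not overlap in this ratio (exact two-sided permutation test of 2 against 2 plates, p = 0.333, the smallest p it can reach). Across the cells of a plate the ratio had a rho of 0.843 to 0.957 with the nuclear gene counts per spike-in count. The part of the amount of all RNA captured in a cell in the difference was not tested.

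The cells of a plate differed widely in the share. It ran from 2.1% to 14.3% in low-resolution replicate 1, from 2.35% to 13.1% in replicate 2, from 2.67% to 13.2% in high-resolution replicate 1 and from 3.31% to 16.5% in replicate 2. The coefficient of variation over cells was 28.8% and 28.5% at low resolution against 20.9% and 20.3% at high resolution, without overlap (exact two-sided permutation test, p = 0.333, the smallest possible). In cells thinned to 10000 UMIs the standard deviation of the summed members was 149 to 216 UMIs, whereas sampling of reads alone gives 26.1 to 27.2. The spread between cells was thus larger than the counting error in each of the 4 plates.

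The members varied across cells largely together. The rank correlation of the large subunit share with the small subunit share was between 0.943 and 0.98. For a single member against the sum of the others, the median rho over the 76 members with a UMI in at least 20% of the cells of every plate was 0.748, 0.76, 0.602 and 0.651 in the order of the plates above. RPS12 had the highest mean rho, with 0.857, 0.884, 0.786 and 0.798, and was followed by RPS6, the substrate of the S6 kinases, and RPS3A. These correlations are descriptions over 271 to 293 cells per plate, and the points of a plate share a library and the cell's total count as denominator. Leaving the mitochondrial genes out of that denominator changed the mean of the plate medians from 0.69 to 0.662.

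The level of a member is its number of expected counts per 10000 gene counts. Because the method counts each transcript once by a tag at its 3′ end, levels of different genes are compared as counts and were not divided by length. The median member had 8.57, and the order of the members was nearly the same in each plate, with a Spearman rho of 0.987 to 0.996 between plates (n = 81 members). The 5 most abundant members were RPS2, RPL41, RPL13, RPS6 and RPL5, which made up 16.1% to 17.5% of the summed members. RPS2, which lies near the mRNA entry of the small subunit, had 26.8, 27, 28.7 and 27.7, and RPL41, the shortest of the ribosomal proteins, had 26.2, 26.8, 29 and 27.8. Their order was not the same in each plate, so that RPS2 and RPL41 cannot be ranked against each other. RPL13 had a mean of 23.6 ± 1.13, RPS6 of 23.4 ± 1 and RPL5 of 21.8 ± 1.65 (SD, n = 4), and the ranges of these neighbours overlapped. The order of RPL13 and RPS6 also differed between plates, whereas RPS6 lay above RPL5 in each plate.

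**Figure D1:**
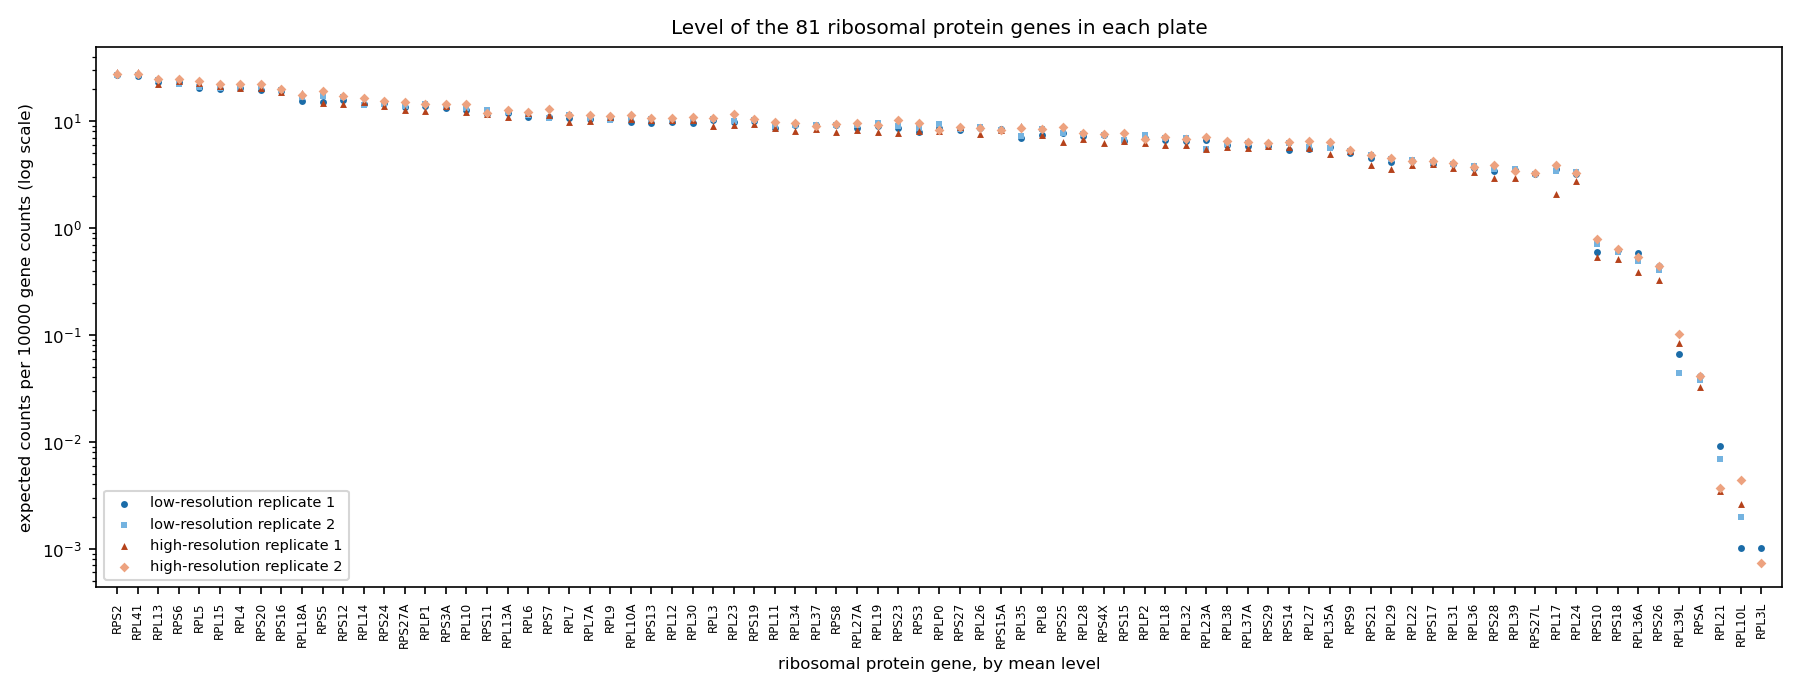
Level of each of the 81 members in the 4 plates, in expected counts per 10000 gene counts on a log axis, ordered by the mean. Members to the left of RPS10 lie at a mean of 3.13 or more and the 9 from RPS10 on lie below 1, and a level of 0 (RPL3L in 2 plates) is not drawn.

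The levels fell into 2 ranges with none between them. Of the members, 72 lay between a mean of 3.13 (RPL24) and 27.5 counts per 10000 and held 99.7% of the summed counts, with a median coefficient of variation over plates of 6.62%. The other 9 lay below 1 and held 0.261% to 0.324% of the sum. RPS10 had 0.599, 0.713, 0.533 and 0.784, RPS18 had 0.623, 0.595, 0.508 and 0.635, RPL36A had 0.584, 0.489, 0.388 and 0.535, and RPS26 had 0.441, 0.4, 0.327 and 0.44. All these encode proteins of the cytosolic ribosome, and RPS26 and RPS10 are genes in which loss of a copy causes Diamond-Blackfan anaemia. RPSA, which also serves as the non-integrin laminin receptor, had 0.0414, 0.0377, 0.0324 and 0.0414, and RPL21 had 9, 7, 4 and 5 UMIs in all the cells of a plate. The highest value of a member of the lower range in any plate was 0.784 (RPS10) and the lowest of the upper range was 2.09 (RPL17), so the ranges did not overlap.

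The low levels stand beside facts of the annotation whose part was not tested. The row named RPL21 is placed on chromosome 10 in the deposited tables, while RefSeq places the gene on chromosome 13 (chr13:27251309-27256691 in GENCODE v29). It is the sole member whose chromosome differed. Of the 60-base words in the last 300 bases of the principal GENCODE v29 transcript, 84.6% also occur in transcripts of other genes for RPL21, 80.5% for RPL36A, 78.4% for RPS10, 54.8% for RPS18 and 27.8% for RPSA, but none for RPS26. The median was 27.8% over the 9 low members and 9.75% over the 72 others. High values also occurred among abundant members, such as RPL9 with 94.6% at a mean level of 10.6, and 15 of the 72 reached 50%. Among these were RPS2 (52.28%), RPS12 (50.62%), RPL10 (55.6%), RPS25 (59.75%) and RPS27 (74.27%), which are named above or below. How reads that fit several genes were counted is not given in the sources used here. With that unknown, the levels of RPL21, RPL36A, RPS10, RPS18 and RPSA are uncertain, as are those of abundant members with shared words. RPL10L and RPL3L, like RPS26, shared none of these words, and RPL39L shared 3.32%. What lies behind their low levels was not tested. A row for the readthrough RPL36A-HNRNPH2 held 0.332, 0.357, 0.251 and 0.321 counts per 10000 beside those of RPL36A, and one for RPS10-NUDT3 held 0.0101 to 0.017. The neighbouring name RPL36AL, which the naming rule leaves out, held 1.64, 1.71, 1.42 and 1.47, above RPL36A in each plate.

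Each of the 4 paralogue copies lay below the gene it copies in 4 of 4 plates. RPL3L, a copy known from heart and skeletal muscle, had 1 UMI in low-resolution replicate 1 and in high-resolution replicate 2 and none in the other 2 plates, which allows up to 0.00297 and 0.00262 counts per 10000, whereas RPL3 had 10.3, 10.5, 9.03 and 10.7. RPL10L, a copy known from the testis, had 1, 2, 3 and 6 UMIs, whereas RPL10 had 12.5, 13.2, 12.1 and 14.4 counts per 10000. RPL39L had 0.0657, 0.0436, 0.0849 and 0.101, against 3.5, 3.59, 2.91 and 3.41 for RPL39. RPS27L, a copy of RPS27 known as a target of p53, reached 3.21, 3.21, 3.36 and 3.3, against 8.23, 8.5, 8.76 and 8.79 for RPS27. The RPS27L level varied by 2.25% between plates, less than that of any other abundant member but RPS15A.

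The question of how these genes relate to the epithelial-to-mesenchymal transition was put to the EMT score of each cell, which is the GSVA score of the mesenchymal genes minus that of the epithelial genes of the study, computed once per experiment. No member is among the scored genes. The ribosomal protein share was higher in cells with a higher EMT score in the low-resolution plates, at a Spearman rho of 0.415 and 0.429, and this relation was weaker in the high-resolution plates, at 0.0424 and 0.206. The plates of the experiments did not overlap, and the difference of the means was -0.298 (exact two-sided permutation test over plates, p = 0.333, the smallest possible). The mean over plates was 0.273 ± 0.185 (SD, n = 4). The relation lay more on the epithelial side: the rho with the E score was -0.466, -0.484, -0.0753 and -0.253, and that with the M score was 0.225, 0.249, 0.0017 and 0.0496.

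The cells of each plate were cut by EMT score into 3 groups of near equal size (90 to 98 cells), called low, middle and high EMT here. In low-resolution replicate 1 the median share of these groups was 5.99%, 7.59% and 8.03%, and in replicate 2 it was 5.5%, 7.76% and 8.25%. In high-resolution replicate 1 it was 6.85%, 7.68% and 6.99%, so that the high EMT group lay below the middle one. In high-resolution replicate 2 it was 7.18%, 8.11% and 8.12%. Cells with a share below 5%, a limit chosen after the values were seen, numbered 44, 45, 21 and 19, or 15.1%, 16.6%, 7.22% and 6.48% of the cells of a plate. Of these, 34, 34, 19 and 18 were in the low EMT group, and at most 1 per plate was in the high EMT group. A low ribosomal protein share was thus found mostly among the more epithelial cells in each of the 4 plates.

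**Figure D2:**
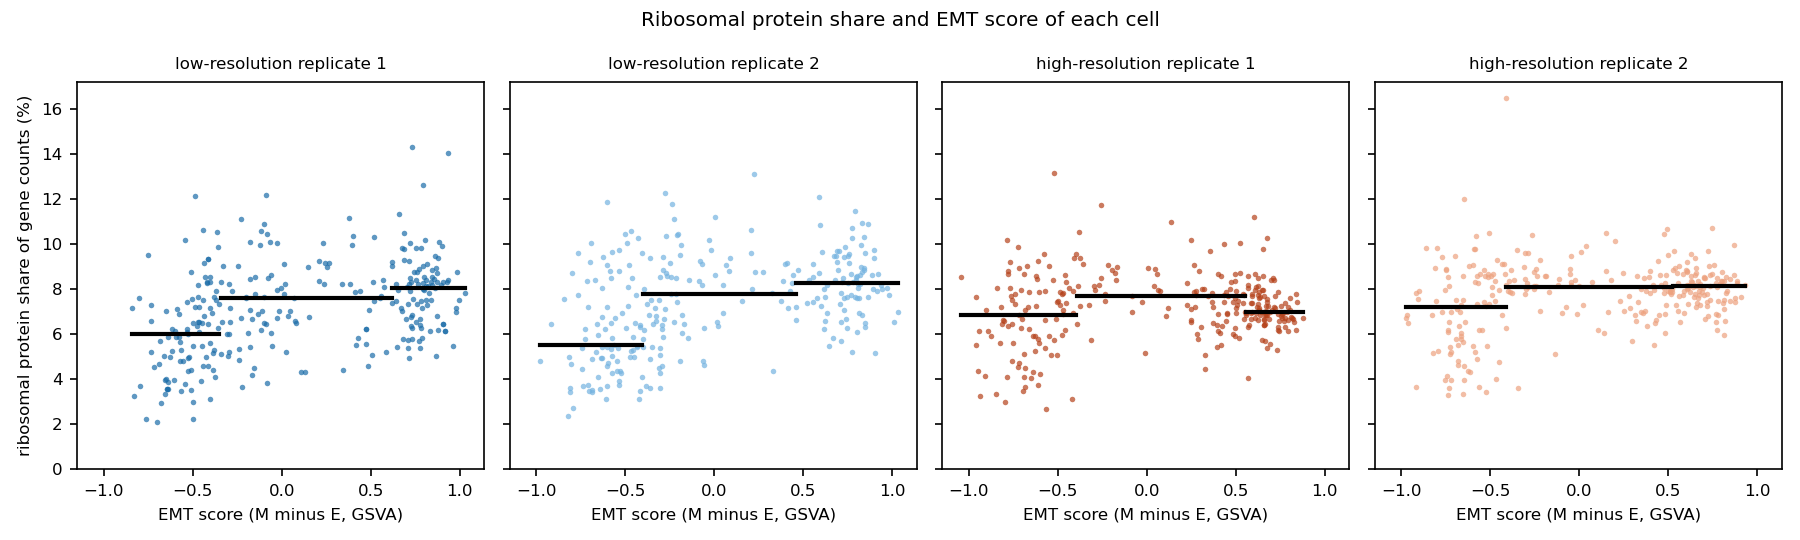
Each point is a cell, with its EMT score (M minus E) on the horizontal axis and the summed ribosomal protein share of its gene counts in percent on the vertical axis, and the black lines are the medians of the low, middle and high EMT groups. Shares below 5% lie mostly at the left in each of the 4 plates, and the medians go across these groups from 5.99% to 8.03% in low-resolution replicate 1 and from 6.85% to 6.99% in high-resolution replicate 1.

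Other measures of the cells moved with the share. Its rho with the mitochondrial percentage was -0.534, -0.449, -0.323 and -0.322. The median mitochondrial percentage of the cells below 5% was 34.1% to 34.8%, against 28% to 30.6% in the other cells. With mitochondrial counts left out of the denominator the rho with the EMT score became 0.333, 0.378, -0.072 and 0.082, and with the mitochondrial percentage regressed out of both ranks, an alternative chosen after seeing the data, it became 0.249, 0.346, -0.0995 and 0.0642. In high-resolution replicate 1 the sign therefore changed with the mitochondrial counts. With the limit of 40% mitochondrial counts lifted it was 0.409, 0.463, 0.216 and 0.31. Per spike-in count in place of gene counts the rho with the EMT score was 0.182, 0.224, 0.0188 and 0.0971, and that with the M score was -0.0451, 0.00725, -0.143 and -0.11. For the share in cells thinned to 10000 UMIs, in which depth is equal, the rho with the EMT score was 0.426, 0.475, 0.0373 and 0.203. The cells with a low share also had fewer counts than the others in the high-resolution plates, with medians of 26518 against 37052 and of 21523 against 41973, while in the low-resolution plates they had 31193 against 30001 and 29885 against 34116.

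Among single members, RPS20, a protein of the head of the small subunit, had the highest mean rho with the EMT score, at 0.4 (0.452, 0.526, 0.242 and 0.382). RPL23, which is known to bind MDM2, followed with 0.499, 0.466, 0.177 and 0.337, and RPL15 with 0.389, 0.44, 0.267 and 0.363. In each of these the high-resolution plates lay below the low-resolution plates. At the other end RPL24, which forms a bridge between the subunits, had -0.0192, -0.00566, -0.126 and -0.0461. The mean of RPL24, -0.0492, moved to -0.113 with mitochondrial genes left out and to -0.014 in thinned cells. RPS21 had 0.0527, 0.0589, -0.154 and -0.0566, and RPL8, a protein close to the peptidyl transferase centre, had 0.102, 0.0655, -0.187 and -0.00579. The mean of RPL8, -0.00631, turned to 0.048 in thinned cells. RPL24 was the sole member that was negative in 4 of 4 plates, where 24.4% of the 8032 genes tested were, and 56 of the 76 members were positive in 4 of 4 plates, where 34.6% of all genes were. The median mean rho was 0.235 over the members and 0.0166 over all genes.

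No member reached the limit of 0.3 with one sign in 4 of 4 plates, in either direction, a limit passed upward by 2.55% and downward by 2.7% of all genes. In the 2 low-resolution plates alone, 44 of the 76 members (57.9%) reached it upward, where 4% of all genes did, and in the 2 high-resolution plates alone none did, where 4.44% did. High-resolution replicate 1 set this count, since without it 6 of the 76 members passed in the other 3 plates, where 2.84% of all genes did. At a limit of 0.2, RPL10, RPL15, RPS20 and RPS7 passed in 4 of 4 plates, or 5.26% of the members against 5.71% of all genes. The order of the members was alike between plates, as the rho over the 76 members between 2 plates was 0.834 within the low-resolution, 0.666 within the high-resolution and 0.677 to 0.771 between the experiments.

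**Figure D3:**
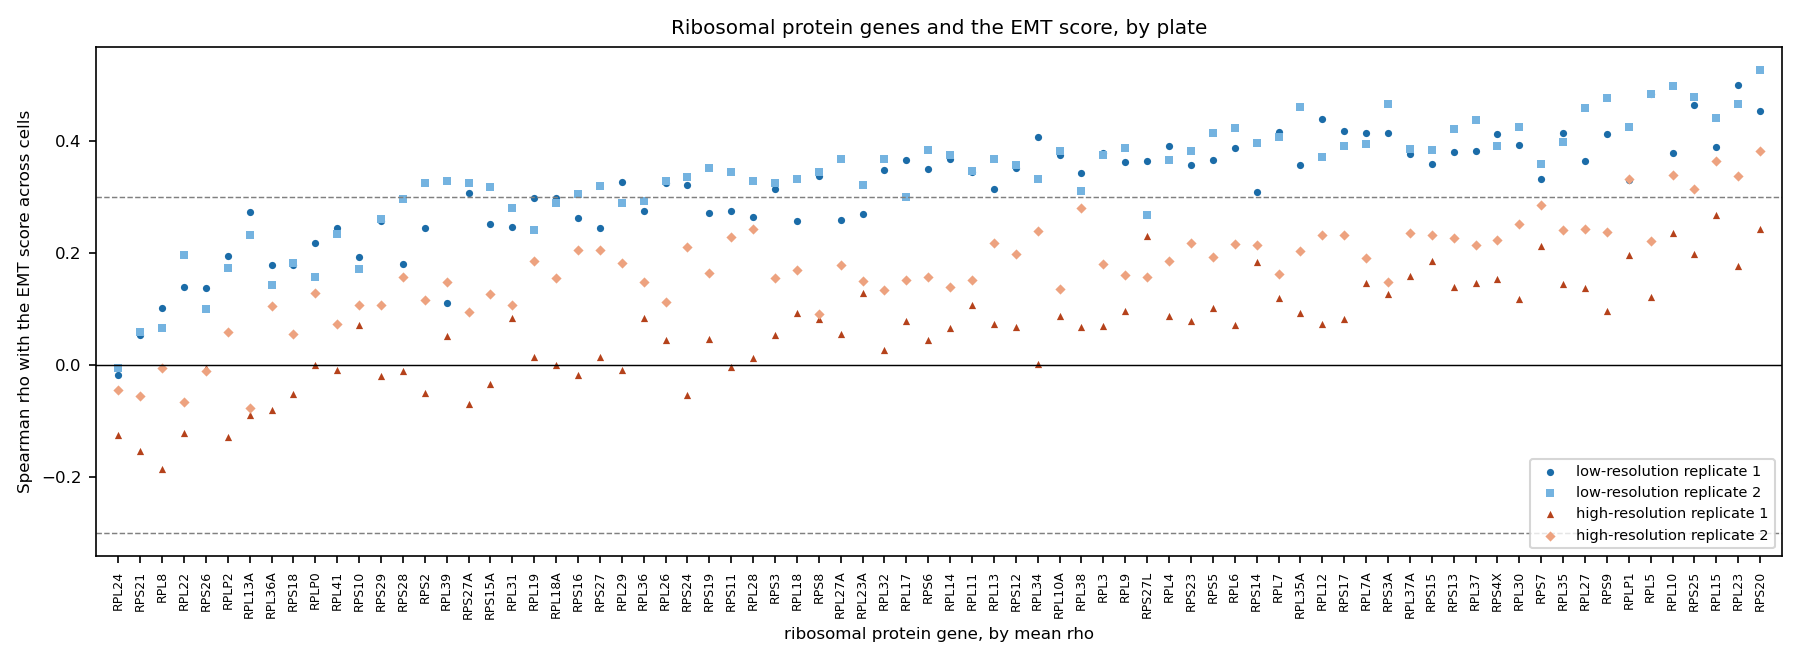
Spearman rho with the EMT score across the cells of a plate for the 76 members with a UMI in at least 20% of the cells of every plate, ordered by their mean, with dashed lines at 0.3 and -0.3. The low-resolution plates (blue) lie above the high-resolution plates (red) for most members, RPS20 is at the right end with a mean of 0.4, and RPL24 is at the left end with -0.0492.

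The members were also described with the summed members as the denominator, a scale chosen after seeing the data. The rho of their part of the ribosomal protein counts with the EMT score was positive in 4 of 4 plates for 28 of 76 members and negative for 15. These counts have no counterpart over all genes on this scale and are a description only. RPL23 had the highest mean, with 0.316, 0.169, 0.186 and 0.226, followed by RPS25 with 0.252, 0.259, 0.171 and 0.208 and RPS20 with 0.0528, 0.308, 0.28 and 0.201. RPL8 had the lowest, with -0.366, -0.427, -0.319 and -0.248, followed by RPL41 with -0.296, -0.381, -0.213 and -0.274 and RPL24 with -0.339, -0.33, -0.188 and -0.201. RPL8, RPL41, RPS21 and RPL22 were below -0.2 in 4 of 4 plates, and no member was above 0.2 in 4 of 4. For RPL8, RPL41, RPL24 and RPS25 both high-resolution plates lay nearer 0 than both low-resolution plates, and for RPL23 and RPS20 the experiments overlapped. Because these are parts of one sum, a positive rho of some members goes with a negative one of others.

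The S and G2/M scores of the cells, computed from the markers that the study used, were related to the share in the same order of plates. The rho with the S score was 0.24, 0.272, 0.0757 and 0.158, and that with the G2/M score was 0.275, 0.277, 0.0253 and 0.185. In thinned cells they were 0.206, 0.305, 0.0396 and 0.169 for S and 0.298, 0.28, 0.0265 and 0.199 for G2/M. With mitochondrial counts left out of the denominator they were 0.217, 0.249, 0.0122 and 0.0613 for S and 0.24, 0.254, -0.0544 and 0.0699 for G2/M, so that the sign of the latter turned in high-resolution replicate 1. With depth regressed out of the ranks, an alternative chosen after seeing the data, high-resolution replicate 2 had 0.0396 for S and 0.0425 for G2/M. When the members were divided by the spike-in counts of the well, and not by the cell's own total, the plates were closer together, at 0.335 to 0.422 for S and 0.31 to 0.476 for G2/M, a quantity that grows with the RNA content of a cell, whose own part was not tested. Regressing both cycle scores out of the ranks left the rho with the EMT score at 0.382, 0.407, 0.0425 and 0.178.

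The ranks and counts of members for the cycle scores cover the 76 members with a UMI in at least 20% of the cells of every plate. RPL39L is below that limit and is therefore not among them, and its values are given further below. RPS7, which binds MDM2, had the highest mean rho of the 76 with the G2/M score, with 0.441, 0.383, 0.246 and 0.365. With the S score it had 0.389, 0.347, 0.256 and 0.285. RPL35, which sits at the exit of the peptide tunnel, had 0.488, 0.364, 0.203 and 0.367 with G2/M and 0.386, 0.316, 0.205 and 0.393 with S. RPL14 was next among the 76 for both scores, at means of 0.291 with G2/M and 0.3 with S. RPS7 and RPL35 were at least 0.2 with both scores in 4 of 4 plates, where 7.82% of all genes were for G2/M, as was RPL14 with S, where 7.73% were, and no member reached 0.3 in 4 of 4 plates, where 4.12% of all genes did upward and 0.398% downward for G2/M, and 3.95% and 0.199% for S. Of the 76 members, 53 were positive with G2/M and 58 with S in 4 of 4 plates, against 42.5% and 42% of all genes.

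RPS27L differed in sign from most members with the cycle scores. Its rho was -0.076, -0.243, -0.291 and -0.191 with the G2/M score and -0.103, -0.202, -0.322 and -0.204 with the S score, and it was the sole member that was negative with either score in 4 of 4 plates, where 19.1% of all genes were. RPS27, the gene of which it is a copy, had 0.0435, 0.0662, -0.053 and -0.0253 with G2/M, and its signs were mixed. With the EMT score RPS27L had 0.363, 0.266, 0.23 and 0.157, which is in the range of the other members. RPL13A, which also acts in a complex that holds back translation of inflammatory mRNAs, was the next lowest with both scores, at means of -0.0393 with G2/M and -0.0415 with S and with mixed signs. The lowest after these were RPL24 with G2/M, at a mean of 0.0037, and RPS27 with S, at -0.029. With mitochondrial genes left out of the denominator the mean for RPL24 with G2/M turned to -0.0365.

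The members that agreed least with the others across cells were RPL36A, with a rho of 0.173, 0.219, 0.0609 and 0.163 with the sum of the others, RPS27L with 0.232, 0.106, 0.203 and 0.186, RPS26 with 0.269, 0.298, 0.0963 and 0.242, RPS18 with 0.415, 0.318, 0.189 and 0.311, and RPL24 with 0.456, 0.365, 0.241 and 0.398. RPL36A, RPS26 and RPS18 are at levels below 1 and RPS27L and RPL24 at levels above 3, and the rho over the 76 members between level and agreement was 0.739. The part of the level in the low agreement was not tested. In thinned cells the ratio of variance to mean was highest for RPS2 (4.46, 4.45, 3.25 and 2.42), followed by RPL5, RPS6, RPL13 and RPL41 with means of 2.71, 2.65, 2.63 and 2.54. All 5 are also the most abundant members, and the ratio followed the level with a rho of 0.896. For RPS26 it was 0.932 to 1.19, close to the value of 1 that counting alone gives.

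**Figure D4:**
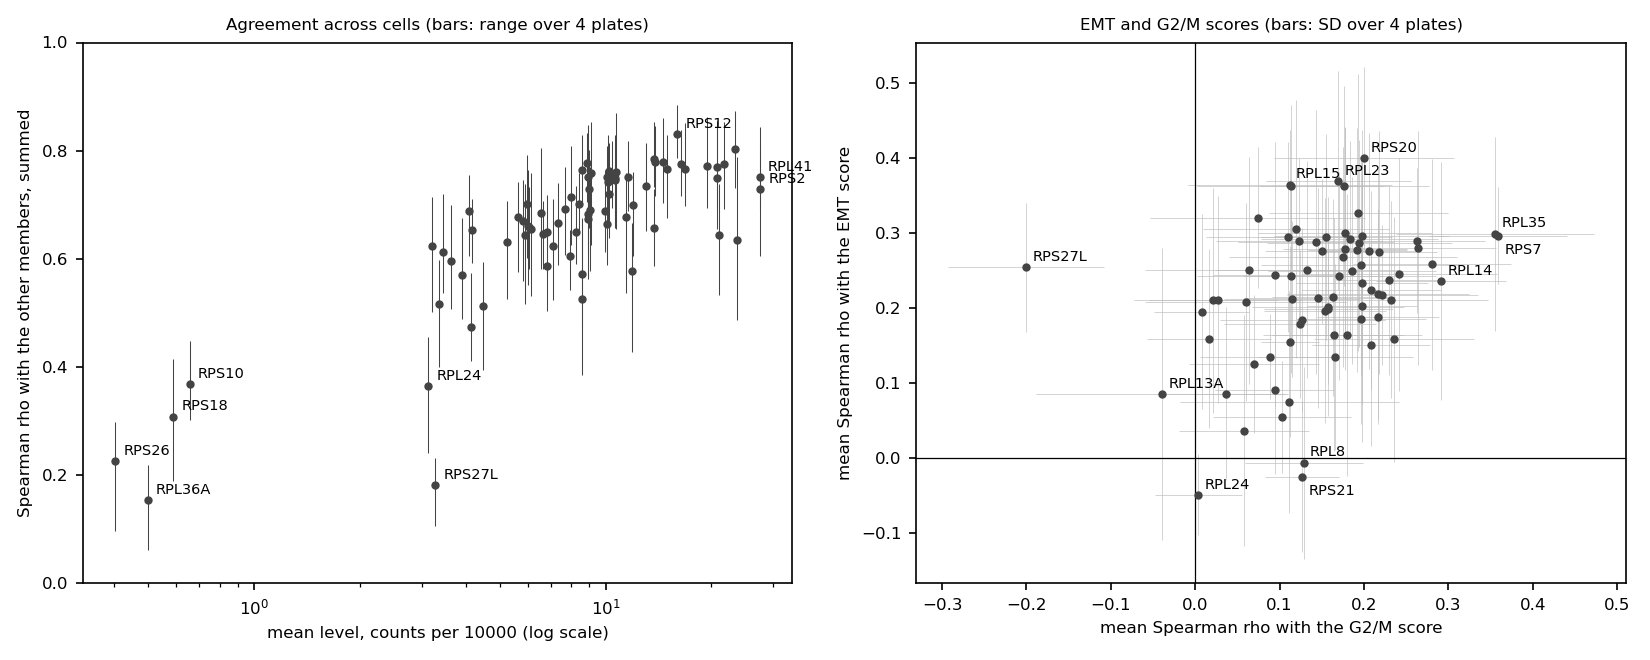
Left, agreement of each of the 76 members with the sum of the others (Spearman rho across cells, mean and range over 4 plates) against its mean level on a log axis. Right, the mean rho with the EMT score against that with the G2/M score, with the SD over 4 plates as bars. RPS27L lies below the members of similar level on the left, at an agreement of 0.181, and apart from the others on the right, at a G2/M rho of -0.2.

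The members were also grouped by their known roles. In the P stalk, which binds the translational GTPases, RPLP0, RPLP1 and RPLP2 had mean rhos with the EMT score of 0.126, 0.321 and 0.0743, the last with a negative value of -0.129 in high-resolution replicate 1. None of the 3 was positive with S or with G2/M in 4 of 4 plates, and their median mean rho with G2/M was 0.0742 against 0.161 over the 76 members. In the 5S particle, RPL5 had 0.484, 0.483, 0.121 and 0.221 and RPL11 had 0.344, 0.346, 0.106 and 0.151, so both were positive in 4 of 4 plates. Of 9 members whose loss causes Diamond-Blackfan anaemia, 7 were positive with EMT and 8 with S in 4 of 4 plates, at median mean rhos of 0.237 and 0.186, where 73.7% and 76.3% of the 76 members and 34.6% and 42% of all genes were positive. RPS26 and RPS24 were those with a negative value for EMT in a plate. None of the members of these 3 groups passed the comparison of the experiments below.

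Genes next to the family in function were described by the same counts, for which the shares over all genes are 34.6% positive with EMT and 42.5% with G2/M in 4 of 4 plates and 2.55% at 0.3 or more with EMT. Of the 17 other translation genes, 15 were positive with EMT in 4 of 4 plates at a median mean rho of 0.227, close to the 0.235 of the members, and 1 of them, NAP1L1, a histone chaperone, reached 0.3 in 4 of 4 plates with a mean of 0.479. PABPC1, the poly(A)-binding protein, had a mean of 0.375, while EIF3H and EEF1D had 0.0976 and 0.0018. Of the 30 ribosome biogenesis genes tested, which build ribosomes without being part of them, 13 were positive with EMT in 4 of 4 plates at a median of 0.0637, and 26 were positive with G2/M at a median of 0.161, the same as that of the members. FBL, the rRNA methyltransferase of the nucleolus, had means of 0.216 with EMT and 0.463 with G2/M, EBNA1BP2 had 0.182 and 0.284, and RRN3 and EIF6 had -0.196 and -0.11 with EMT. The 75 mitochondrial ribosomal protein genes had a median rho of -0.0019 with EMT and of 0.136 with G2/M, with MRPL33 and MRPL51 highest for EMT (0.211 and 0.196) and MRPS26 and MRPS36 lowest (-0.155 and -0.151). Of 7 regulators of ribosomal protein synthesis, 1 was positive with EMT in 4 of 4 plates. LARP1 and RPTOR had the highest means (0.197 and 0.0487) and MYC and RPS6KB1 the lowest (-0.0792 and -0.021).

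Levels in the high-resolution plates were compared with those in the low-resolution plates by edgeR's quasi-likelihood test on expected counts summed per plate, with Benjamini-Hochberg adjustment over the 12437 genes tested. Of 78 members tested, 1 was higher and none was lower at an adjusted p under 0.05, where 6.26% of all genes were higher and 6.18% lower, and 2 of the 78 members had an unadjusted p under 0.05 where 3515 of the 12437 genes did (by DESeq2, which called RPL35 alone among the members, 2 of 78 and 2391 of 12437). RPL3L, RPL10L and RPL21 were too low to be tested. The median log2 fold change was 0.04 over the members, with a median SE of 0.11, and -0.02 over all genes. The plates of the 2 experiments did not overlap for 18 members upward and 5 downward, or 23.1% and 6.41% of the members, where 25.5% and 32% of all genes did so. RPL26, RPL37, RPL39, RPLP0 and RPLP2 were the 5.

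The member that passed was RPL39L, whose levels of 0.0657 and 0.0436 counts per 10000 at low and 0.0849 and 0.101 at high resolution gave a log2 fold change of 0.81 ± 0.24 (SE) and an adjusted p of 0.0441 by edgeR. The plates did not overlap. The call rests on few counts, with 44 UMIs in the plate with the fewest, and over 12 alternatives its adjusted p ran from 0.00617 to 0.195, with 0.167 without low-resolution replicate 2, 0.195 without high-resolution replicate 2 and 0.109 by DESeq2. Across cells RPL39L had a rho of 0.361, 0.297, 0.365 and 0.384 with the G2/M score and of 0.314, 0.218, 0.306 and 0.34 with the S score, and cells called G1 numbered 198 of 291 and 191 of 271 at low against 154 of 291 and 149 of 293 at high resolution. The part of the cell cycle in the difference was not tested. RPL35 was next, with 6.95, 7.32, 9.04 and 8.65 counts per 10000 in the plates, so that the experiments did not overlap, a log2 fold change of 0.34 ± 0.11 and an adjusted p of 0.0527 by edgeR. It passed under 6 of 12 alternatives, over which its adjusted p ran from 0.0143 to 0.218, DESeq2 and the replicate block among the 6 (adjusted p of 0.0422 and 0.0363). RPL5 had the next largest log2 fold change, at 0.21 ± 0.10 with an adjusted p of 0.198 by edgeR.

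The lowest fold changes were those of RPL17, RPL36A and RPL39, at -0.19 ± 0.20, -0.18 ± 0.15 and -0.13 ± 0.11 on the log2 scale, none of which passed (edgeR, adjusted p of 0.579, 0.485 and 0.472). All 3 were lowest in high-resolution replicate 1. Without that plate RPL36A turned to 0.03 and RPL39 came to -0.02. RPL17 had 3.53, 3.4 and 3.84 counts per 10000 in low-resolution replicates 1 and 2 and high-resolution replicate 2, but 2.09 in high-resolution replicate 1. Without that plate the log2 fold change was 0.18, and without high-resolution replicate 2 it was -0.68, with an adjusted p of 0.00193 by edgeR, the lowest of the 0.00193 to 0.855 over its alternatives. Of the last 300 bases of RPL17, 93.4% of the 60-base words also occur in other genes, and the row RPL17-C18orf32 held 0.00175 to 0.00443 counts per 10000, so its level is uncertain as well.

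**Figure D5:**
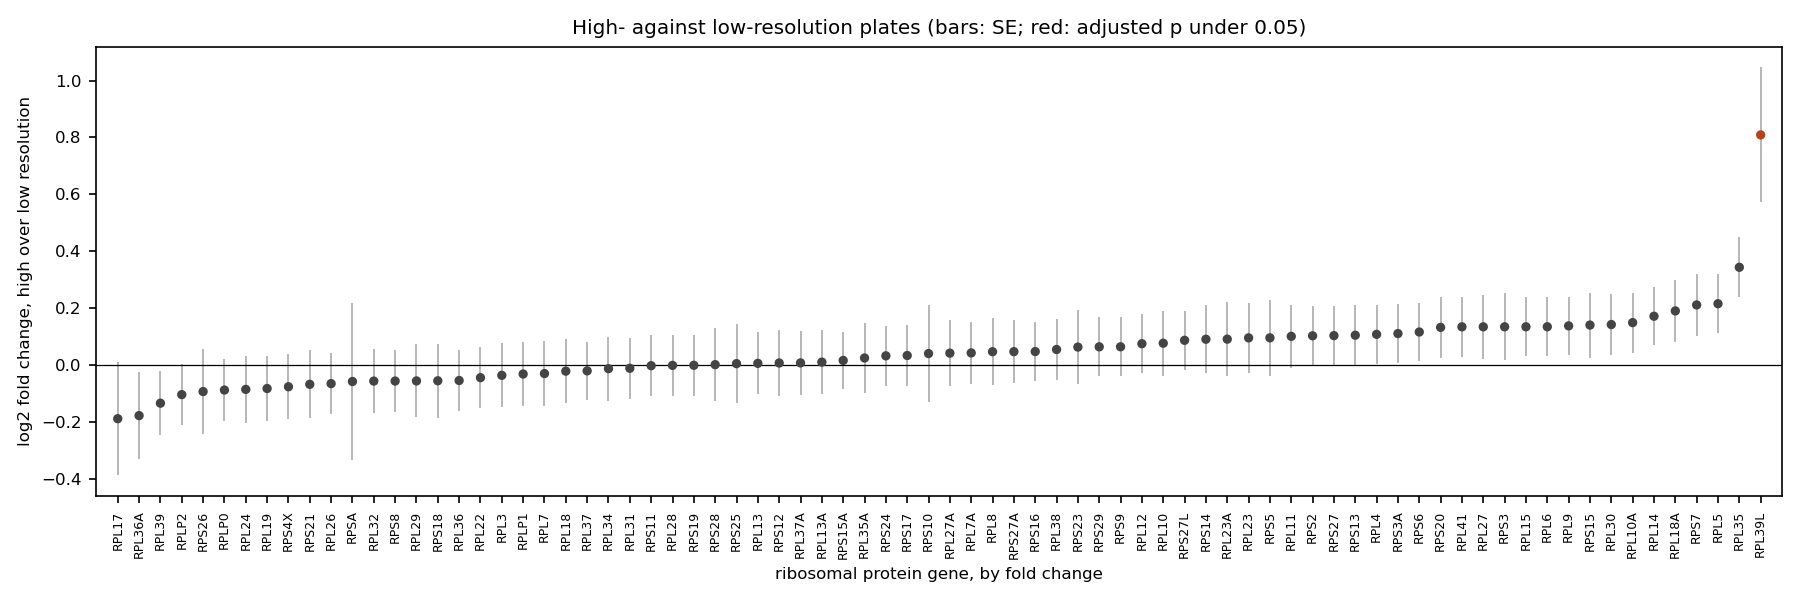
Log2 fold change of the 78 tested members, high over low resolution, ordered by size. Bars are the SE derived from the fold change and edgeR's F statistic, and the single call at an adjusted p under 0.05 is in red. RPL39L stands at 0.81 and the others lie between -0.19 and 0.34.

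Among the neighbouring groups, 5 of 31 ribosome biogenesis genes were higher in the high-resolution plates and none was lower, where 6.26% of all genes were higher and 6.18% lower, at a median log2 fold change of 0.26. These were FBL, DKC1, BOP1, EBNA1BP2 and UTP4, with FBL at 0.50 ± 0.11 (adjusted p = 0.0104 by edgeR) after 1.82, 1.83, 2.46 and 2.59 counts per 10000. Of the mitochondrial ribosomal protein genes 3 of 76 were higher and none lower, and of the 17 other translation genes none passed, at a median of 0.05. RPTOR, the mTOR complex subunit that recruits its substrates, was the 1 of 7 regulators that was higher, at 0.74 ± 0.18 (adjusted p = 0.0208), and RPL22L1, a paralogue of RPL22 outside the naming rule, was the 1 of 6 neighbouring names, at 0.42 ± 0.11 (adjusted p = 0.0297). RPL22L1 also had mean rhos of 0.321 with EMT and 0.421 with G2/M, against 0.0366 and 0.058 for RPL22.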

How the data were processed

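Single cells from the patches were measured by SORT-seq, a plate-based 3′ method in which each transcript carries a unique molecular identifier (UMI). The authors deposited 1 table of expected counts per plate, UMI counts corrected for the 4096 possible UMIs, with spike-in rows. STAR 2.7.3a, the build hg38 and Seurat 4 are named in the submitters' processing notes, and the handling of reads that fit several genes is not given in the sources used here. Whole UMIs came back from the 7245730 values above 0 with a largest distance of 4.55e-13 (tolerance 1e-09). For fits, expected counts were rounded to whole numbers.

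The filter required at least 2000 and at most 9000 features and mitochondrial counts below 40% (271 to 293 per plate, 9894334 to 13538057 gene counts). The 81 spike-in rows were left out of the gene counts by which shares and levels were divided. They were included in the features and mitochondrial percentages of the filter, the transcripts of a plate and the median depths of the plates. Levels are counts per 10000 gene counts. EMT scores were computed by GSVA in numpy 2.4.6 and numba 0.67.0 from 64 epithelial and 97 or 100 mesenchymal genes, once per experiment, and S and G2/M scores by Seurat 5.3.0 from 43 and 54 markers. Correlations are Spearman's within a plate, over log-normalized values, for the 8032 genes that at least 20% of the cells of every plate hold by a UMI. They carry no p, since cells are not replicates. The experiments were compared on counts summed per plate by edgeR 4.0.16 (quasi-likelihood, TMM, filterByExpr) in R 4.3.3, with DESeq2 1.42.0 as an alternative, and single values by exact permutation in scipy 1.17.1 (smallest p of 0.333 for 2 against 2). The SE of a fold change is the size of its log2 value divided by the square root of edgeR's F statistic. The scripts were tested on simulated data. TMM moved the median of all genes to -0.02 on the log2 scale, and without scaling it was -0.05.

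The members and gene lists were chosen with earlier results of these data known. Named members are the 5 highest and 5 lowest levels, those below the 20% limit, the 3 highest and 3 lowest mean rho with each score, the 3 largest and smallest fold changes, the 5 lowest agreements with the other members, the 5 highest ratios of variance to mean, the paralogue pairs and the P stalk, 5S particle and Diamond-Blackfan lists. Other lists are given by counts, and those of genes next to the family in function with the 2 highest and 2 lowest mean rho with EMT. Members named on the summed-members scale were chosen after their values were seen. Alternatives changed the denominator, depth (cells thinned to 10000 UMIs), cell filter, score, scaling, count filter, test and replicates. Intervals and floors (3 counts for a count of 0) cover counting error only. Doublets were not called, as each well received 1 sorted cell. Region labels of the wells were not analysed here.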

Additional observations from a re-analysis of the deposited data

Results flagged for a closer look

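Data outside the comparisons of the report also held counts of this gene family. The 30 rows named as ribosomal protein pseudogenes summed to 0.71 counts per 10000 on average over the 4 plates (0.746, 0.719, 0.632 and 0.744), or 0.0878% to 0.102% of the members' counts, with RPS14P3 the highest at 0.185 to 0.237. Wells with under 2000 features, which the filter left out, numbered 51, 63, 50 and 58 and had a mean ribosomal protein share of 2.96% (1.35%, 2.01%, 3.52% and 4.97%). With mitochondrial counts left out of the denominator their share was 6.93% to 11.4%. Wells with 2000 to 9000 features and 40% or more mitochondrial counts, also left out, numbered 41, 50, 43 and 33 and had a mean share of 4.52% (3.41%, 5.06%, 4.53% and 5.07%), or 7.44% to 9.41% without mitochondrial counts. No group here has more than 2 plates, so no plate was tested as lying apart from its group.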

How the results depend on the processing

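Most values kept their direction and their side of the limit under the alternatives. The share of counts became 10.7% with mitochondrial genes left out and 7.33% to 7.59% with a plate left out. The mean rho of the share was 0.221 to 0.35 with EMT, 0.158 to 0.223 with S and 0.162 to 0.246 with G2/M with a plate left out, and 0.131 with EMT, 0.363 with S and 0.395 with G2/M per spike-in count. Members that followed a score upward numbered 4 for EMT, 2 for G2/M and 3 for S at a limit of 0.2 (5.71%, 7.82% and 7.73% of all genes), and 0 to 6, 0 to 4 and 0 to 1 of 76 with a plate left out, the highest in each case without high-resolution replicate 1 (2.84%, 4.72% and 4.26% of all genes). The median agreement was 0.53 in thinned cells and 0.667 to 0.72 with a plate left out.

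Between the experiments 2 members were higher under RLE scaling, with mitochondrial genes left out and with no filter on low counts, and 0 without scaling. Over all genes 12.64% were called under RLE scaling, 12.3% with mitochondrial genes left out and 11.12% with no filter on low counts. Without scaling 10.52% were called, with 558 higher and 750 lower, against 778 and 769 in the main fit. With a plate left out 0 to 1 members were higher and 0 to 1 lower (RPL17), and over all genes 434 to 552 were higher and 511 to 620 lower. In thinned cells 1 member (RPL35) was higher, and over all genes 525 were higher and 473 lower. Without high-resolution replicate 1 the log2 fold changes of RPL17 and RPL36A turned to 0.183 and 0.0328, and without high-resolution replicate 2 they were -0.676 and -0.415. The rho of RPL8 with EMT turned to 0.048 in thinned cells and that of RPL24 with G2/M to -0.0365 without mitochondrial genes. The cause was not tested.

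No pairing of the same-numbered plates is given in the sources used here. The correlation of their deviations was -0.0238 over 12437 genes and -0.167 over 78 members. With 1 difference between replicates per experiment, these values cannot tell whether same-numbered plates shared any handling. With the replicate block 2 members (RPL35 and RPL39L) were higher, and 1008 genes were higher and 1015 lower. Alternatives that regress out the mitochondrial percentage or the depth, use the summed members as denominator or take 1 experiment alone were chosen after seeing the data. With 2 plates per experiment, exact tests cannot go below p = 0.333, and levels of RPL3L, RPL10L and RPL21 rest on under 10 UMIs per plate.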
